A study of Mus musculus with 2 samples.

Results

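Outer root sheath stem-like keratinocytes were followed in single-cell RNA data from mouse back skin epidermis at postnatal day 2. The outer root sheath is the outer layer of the hair follicle, and the cells described here were picked out of the keratinocytes by the genes detected in each of them. A cell was a member when at least 3 of 7 stem-side genes (Adamts19, Nlgn1, Nkain2, Adamtsl1, Shisa2, Cacna1e and Robo2) had a unique molecular identifier (UMI, 1 captured RNA molecule), and when more of these were detected than of the 7 lower sheath genes Spon1, Ghr, Lgr5, Fgf5, Fndc1, Gnmt and Pla2g7. Each cell also needed between 1000 and 8000 genes with a UMI, less than 15% of its UMIs from mitochondrial genes, and at least 10 UMIs of Krt5 and Krt14 per 10000, above those of Col1a1 and Col1a2. These conditions left 641 members among 4702 gated keratinocytes, 8206 cells past the limits and 10622 barcodes.

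The series compared a control library, labelled WT, with a Gli2_EKO library, here written Gli2EKO. According to the methods, Gli2EKO mice are K14Cre tg;Gli2 fl/fl and lack the transcription factor Gli2 in keratinocytes, since K14Cre recombines in keratinocytes from embryonic life on; the alleles were kept on a C57Bl/6N background. Controls were littermates with floxed alleles but without the Cre recombinase, so that WT in the label does not stand for wild-type alleles. Both libraries were made from epidermal whole mounts freed with collagenase and dissociated with trypsin, at 2 days of age. There was 1 library per genotype, how many mice each holds is not given in the sources used here, and 0 cell barcodes were shared between the libraries, so that every difference below compares 2 libraries and carries counting error only.

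The outer root sheath grows down from the epidermis as the follicle forms, and its upper part later houses the bulge, the reservoir of hair follicle stem cells. Sox9 and Lhx2 are transcription factors needed to set up and keep these stem cells, and Nfatc1 keeps bulge cells at rest. Hedgehog signalling reaches the follicle epithelium through the receptor Ptch1 and the effector Smo, and ends at the Gli transcription factors, of which Gli2 acts mostly as an activator and Gli3 mostly as a repressor.

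The promoters of 3 genes that were higher in these cells than in other keratinocytes are shown, because 1 was lower, 1 higher and 1 close to equal between the libraries. They are given as RefSeq gives them on GRCm38.p6, with 250 bases before the transcript start in lower case and 50 bases after it in capitals. Npnt, at chr3:132950242-132950541 on the minus strand, encodes nephronectin, a basement membrane protein, and was lower in the Gli2EKO cells. Krtap17-1, at chr11:99993945-99994244 on the minus strand, encodes a keratin-associated protein and was higher in them. Col4a4, at chr1:82586800-82587099 on the minus strand, encodes a collagen IV chain and was at 104 CPM in control and 114 CPM in Gli2EKO members, in counts of its RNA molecules scaled to 1000000 (CPM).
Npnt: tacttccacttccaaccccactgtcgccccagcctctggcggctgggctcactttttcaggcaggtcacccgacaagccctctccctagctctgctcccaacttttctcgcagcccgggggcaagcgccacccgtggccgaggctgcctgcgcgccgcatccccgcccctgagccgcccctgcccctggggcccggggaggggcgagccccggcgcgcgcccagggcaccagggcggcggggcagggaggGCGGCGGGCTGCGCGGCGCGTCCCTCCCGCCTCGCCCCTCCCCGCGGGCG
Krtap17-1: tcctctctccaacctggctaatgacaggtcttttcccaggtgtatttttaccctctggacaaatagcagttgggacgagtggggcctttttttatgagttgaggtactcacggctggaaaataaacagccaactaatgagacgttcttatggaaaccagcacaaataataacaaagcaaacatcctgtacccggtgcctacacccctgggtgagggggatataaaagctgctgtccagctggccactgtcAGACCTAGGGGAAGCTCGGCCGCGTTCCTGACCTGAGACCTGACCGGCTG
Col4a4: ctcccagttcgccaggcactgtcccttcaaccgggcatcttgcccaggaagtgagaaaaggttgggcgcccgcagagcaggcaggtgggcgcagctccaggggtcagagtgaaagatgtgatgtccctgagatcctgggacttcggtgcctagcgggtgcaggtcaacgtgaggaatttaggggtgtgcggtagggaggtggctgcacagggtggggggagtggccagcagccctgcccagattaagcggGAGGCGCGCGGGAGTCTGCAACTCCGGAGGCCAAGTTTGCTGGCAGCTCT
The Npnt window held 76.7% G and C and 32 CG pairs, the Krtap17-1 window 50.7% and 8, and the Col4a4 window 63.3% and 14. The letters GACCACCCA, the core of the sites that Gli proteins bind, were searched on both strands. Of 28 genes looked up, among them the leading genes of the members and the Hedgehog genes Ptch1, Hhip, Gli2, Gli3 and Gas1, 22 matched a promoter in the table, and these letters were found in 0 of their 34 promoters, against 0.253% of all 32851 promoters. The table held no promoter for Adamts19, Adamtsl1, Col4a3, Fst, Gli1 and Smoc1. At so low a rate most sets of this size hold none, and 0 says only that these letters are not in these windows.

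The control library held 453 members and the Gli2EKO library 188. Members made up 17.4% of the gated control keratinocytes (exact Clopper-Pearson 95% interval 16.0 to 18.96) and 8.93% of the gated Gli2EKO keratinocytes (7.75 to 10.2). The Gli2EKO share was 0.512 times the control share, with an interval from counting error of 0.430 to 0.608. Out of all cells past the limits the shares were 9.35% and 5.59%, a ratio of 0.598. The gated keratinocytes themselves were 53.6% of the control cells and 62.6% of the Gli2EKO cells past the limits. The mirrored rule asked for at least 3 lower sheath genes and more of them than of the stem-side genes. By this rule 737 control and 469 Gli2EKO keratinocytes formed a lower sheath class, at 28.4% and 22.3% of the gated keratinocytes. How like the members this class is was not measured.

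Because the number of detected genes chose the members, the cells near the thresholds are a description only. Exactly 3 stem-side genes were found in 145 control and 61 Gli2EKO members, and all 7 in 38 and 10. A margin of exactly 1 over the lower sheath genes was held by 98 and 46 members. Just outside the rule lay 224 control and 153 Gli2EKO keratinocytes with exactly 2 stem-side genes and fewer lower sheath genes, and 48 and 25 with at least 3 stem-side genes but a tie. A further 83 and 57 cells met both gene conditions but failed the keratin and collagen gate. The class is therefore bounded by cut-offs on a count of detected genes. These counts do not show whether the cells form a sharply bounded cell type. Members had a median of 10837 UMIs in the control and 9845 in the Gli2EKO library, against 13828 and 14023 in the other gated keratinocytes.

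**Figure D1:**
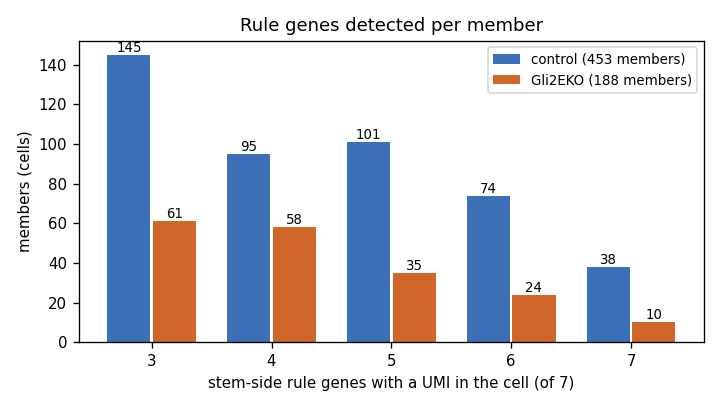
Number of members (bar height, in cells) by how many of the 7 stem-side rule genes had a UMI, for the control (blue) and the Gli2EKO library (orange). The bars at 3 genes hold 145 and 61 members and those at 7 genes 38 and 10.

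The stem-side genes chose the cells, so their levels describe the rule at work. Levels are UMIs summed over the cells of a library and scaled to 1000000 (CPM), with exact Poisson 95% intervals. Adamts19, a secreted metalloprotease, stood at 359 CPM (344 to 375) in control members and at 144 CPM (129 to 160) in Gli2EKO members, and Nlgn1, a synaptic adhesion protein, at 148 CPM (139 to 158) and 77.2 CPM (66.4 to 89.3). Nkain2, which binds the sodium pump, was at 258 and 178 CPM. The other stem-side genes lay closer together in the members, which were chosen by detecting these genes. Robo2, a receptor for Slit guidance cues, was at 808 CPM in control and 936 CPM in Gli2EKO members, and Adamtsl1, a matrix protein related to the ADAMTS proteases, at 493 and 462 CPM. Shisa2, which holds back Wnt and FGF receptors, was at 217 and 213 CPM, and Cacna1e, a voltage-gated calcium channel, at 87.3 and 73.4 CPM. In other gated keratinocytes the levels were 30.3 and 9.02 CPM for Adamts19, 64.0 and 25.3 CPM for Adamtsl1, and 1.25 and 0.741 CPM for Cacna1e. Robo2 went the other way there, with a UMI in 34.0% of control and 45.7% of Gli2EKO cells. A lower level of a stem-side gene, such as Adamts19, Nlgn1 or Nkain2, also makes a cell less likely to pass the rule. The smaller share of members and the lower level of these genes therefore cannot be told apart by the rule alone. Several of these are long genes in the files' build, GRCm39: Robo2 lies at chr16:73688727-75244270, Nkain2 at chr10:31565306-32766458, Adamtsl1 at chr4:85432409-86346622 and Nlgn1 at chr3:25480379-26386609.

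Sox9, Lhx2 and Nfatc1 are 3 markers of the label that the rule did not use. The study named the same 3 as stem cell markers of a cluster in these data. They were chosen here with earlier results known, so their levels describe the members and do not test the label. Sox9 was at 509 CPM (491 to 527) in control members and 502 CPM (473 to 531) in Gli2EKO members, and at 143 and 115 CPM in the other keratinocytes. Nfatc1 was at 195 CPM (184 to 207) and 219 CPM (200 to 239), and at 35.6 and 33.9 CPM in the others. Lhx2 was at 302 and 269 CPM in members and at 127 and 74.4 CPM in the others. All 3 were higher in members in both libraries. After each cell was thinned to 5000 UMIs, which left out 17 control and 7 Gli2EKO members, Sox9 was found in 84.2% of control and 82.3% of Gli2EKO members (95.4% and 93.1% without thinning), Lhx2 in 67.4% and 62.4%, and Nfatc1 in 53.7% and 51.9%. In immune and endothelial cells, which should lack Sox9 and Lhx2 and had a median of 10658 and 11729 UMIs, Sox9 was found in 2.86% of 105 control cells and in 0 of 65 Gli2EKO cells. A count of 0 allows a share of up to 4.62% when 3 cells are taken as its limit, and the Clopper-Pearson upper bound was 5.52%. Nfatc1, also an immune and endothelial gene, was found there in 18 of 105 and 13 of 65 cells. All 3 of Sox9, Lhx2 and Nfatc1 were found together in 32.6% of control and 34.3% of Gli2EKO members, against 2.15% and 3.31% of the other keratinocytes. None of the 3 was found in 3.44% and 9.39% of the members.

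The bulge markers Krt15 and Cd34 did not set these cells apart, while the stem cell markers Lgr6 and Lrig1 were higher in them. Krt15, a keratin of basal and bulge cells, was at 1869.6 CPM in control and 1775 CPM in Gli2EKO members and at 2017 and 2039.9 CPM in the other keratinocytes. Cd34, a surface marker of the adult bulge, was at 3.88 and 10.2 CPM in members and at 7.65 and 5.76 CPM in the others. The member values rest on 23 UMIs in 17 control and 24 UMIs in 7 Gli2EKO cells. Of the Gli2EKO UMIs, 41.7% came from 1 cell of a cluster led by fibroblast genes. Lgr6, a marker of upper follicle stem cells, was at 193 and 185 CPM against 83.7 and 59.6 CPM, and Lrig1, a marker of stem cells of the junctional zone, at 523 and 423 CPM against 298 and 181 CPM.

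**Figure D2:**
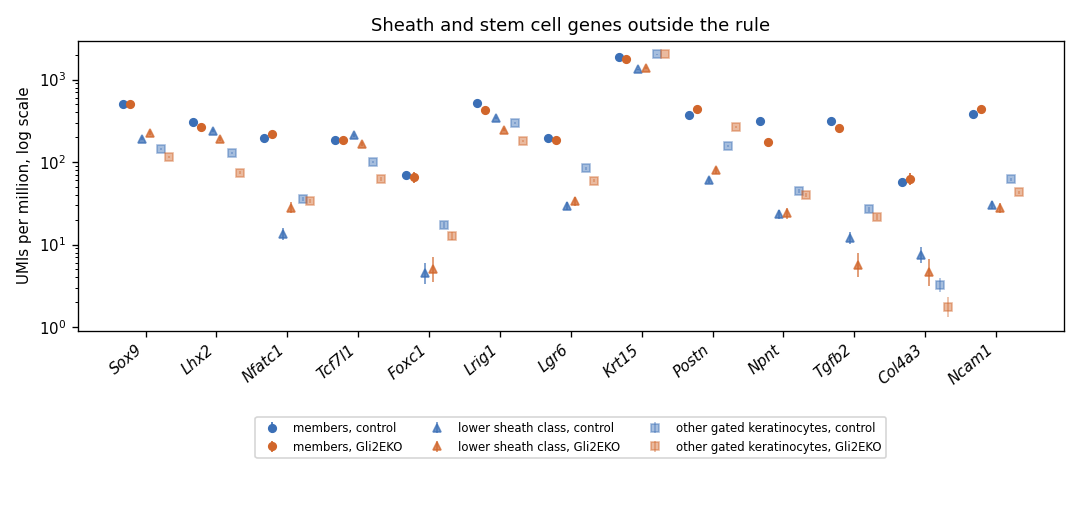
Level of 13 genes outside the rule in CPM (vertical axis, log scale) for members (circles), the lower sheath class (triangles) and other gated keratinocytes (squares), with the control in blue, Gli2EKO in orange and bars for the exact Poisson 95% interval. The member circles of Sox9, Nfatc1, Tgfb2 and Col4a3 lie above every other symbol of the same gene, while Krt15 does not separate the classes.

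Across the whole transcriptome, 1118 of 13584 genes (8.23%) were at least 1.5-fold higher in members than in other gated keratinocytes in both libraries, and 748 (5.51%) were lower. The cells were chosen by their own counts, so these numbers describe the class and are no test. The 15 genes with the largest mean log2 ratio included 5 of the 7 stem-side genes of the rule. The remainder were Tafa1, Col4a3, Pinlyp, Krtap17-1, Pdlim3, Rnase12, Egflam, Bdnf, Tgfb2 and Smoc1. Tafa1, a secreted chemokine-like protein, was at 63.0 CPM in control and 67.0 CPM in Gli2EKO members and at 1.65 and 0.471 CPM in the others. Tgfb2, a ligand of the TGF-beta family, was at 312 and 259 CPM against 26.8 and 21.4 CPM. Bdnf, a neurotrophin, was at 59.6 and 68.7 CPM against 6.33 and 4.55 CPM. Col4a3 was at 58.1 and 61.8 CPM against 3.24 and 1.75 CPM. Pinlyp rested on few cells, and its 385 and 444 CPM came from 28 control and 14 Gli2EKO members.

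Of 16 transcription factors of the sheath and its stem cells, 11 were higher in members in both libraries and 0 were lower. Of all genes tested, 8.23% were higher and 5.51% lower. The median log2 ratio of the 16 over the other keratinocytes was 0.76 in the control and 1.08 in the Gli2EKO library. All tested genes had medians of 0.04 and 0.11. Besides Sox9, Lhx2 and Nfatc1 the higher factors were Tcf7l1, Tcf7l2, Runx1, Foxc1, Nfib, Barx2, Hopx and Trp63. Foxc1, which works with Nfatc1 in bulge quiescence, was at 68.9 and 65.3 CPM in members and at 17.3 and 12.8 CPM in the others. Barx2, a homeobox factor, was at 1015 and 927 CPM against 452 and 389 CPM. Vdr, the vitamin D receptor, was not among them, at 135 and 122 CPM in members against 218 and 121 CPM.

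Of the stem niche and sheath markers, 9 of 14 tested were higher in members and 0 lower, at a median of 1.04 in each library. The shares over all genes, 8.23% higher and 5.51% lower, stand beside each list of this paragraph. Npnt was at 319 CPM (304 to 333) in control and 175 CPM (159 to 193) in Gli2EKO members, against 44.6 and 39.6 CPM in the others, and Egfl6, a secreted protein of the upper bulge, was at 73.8 and 96.8 CPM against 12.03 and 8.48 CPM. Postn, a matrix protein, was at 373 and 438 CPM against 156 and 265 CPM. Among 20 genes of basement membrane adhesion, only Frem2, a Fraser complex protein, was higher in both libraries, and the median was 0.03 in each, below the 0.11 of all genes in the Gli2EKO library. Among Wnt ligands, 7 of 12 were lower and 1, Wnt5b, was higher, whereas of 28 Wnt receptors and inhibitors 11 were higher and 5 lower. Those higher included the receptors Fzd2, Fzd3, Fzd7 and Fzd8, the R-spondin receptors Lgr4 and Lgr6, and the secreted inhibitors Dkk3, Sfrp1 and Sostdc1. Of 25 BMP and TGF-beta genes 5 were higher (Id4, Tgfb2, Tgfb3, Ltbp1 and Ltbp2) and 7 lower, among them the BMP targets Id1, Id2 and Id3. Of 42 guidance and synaptic adhesion genes outside the rule 12 were higher, with Ncam1 at 385 and 439.7 CPM against 62.2 and 42.8 CPM, and 2 were lower. Of 12 genes of the suprabasal epidermis 7 were lower, with Krt10 at 443 and 1047 CPM against 1451 and 2628 CPM.

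Against the lower sheath class, 910 of 11435 genes (7.96%) were higher in members in both libraries and 718 (6.28%) lower. Nfatc1, Foxc1, Tgfb2 and Lgr6 set the classes apart, with Nfatc1 at 13.4 and 28.1 CPM and Tgfb2 at 12.01 and 5.71 CPM in the lower sheath class. Lhx2 and Tcf7l1 did not separate them by 1.5-fold. Lhx2 was at 241 and 192 CPM in the lower sheath class, and Tcf7l1 at 212 and 165 CPM, against 183 and 186 CPM in members.

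Genes higher in members were long. Their median span in the annotation was 44.4 kb, against 25.5 kb for all genes tested and 22.1 kb for genes lower in members. The share of UMIs from Malat1, a nuclear RNA, was 1.37% in members of either library and 1.17% and 1.30% in the other keratinocytes, and mitochondrial RNA took 2.80% and 3.16% in members and 2.75% and 2.68% in the others. The part of gene length or RNA quality in these differences was not tested.

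Gated keratinocytes were then clustered without the 18 rule and gate genes, to see what the members share apart from the rule. Of 17 clusters, 1, cluster 6, held 188 of the control members (41.5%) and 87 of the Gli2EKO members (46.3%). Members made up 91.7% of the 205 control cells and 75.0% of the 116 Gli2EKO cells of this cluster. Besides the rule genes it was led by Col4a3, Krtap17-1, Col4a4, Npnt and Pdlim3, an actin-associated LIM protein. Cluster 3 held 20.1% and 14.9% of the members and was led by Aldh3a1, an aldehyde dehydrogenase, and by Ncam1, Pparg, the master regulator of sebocytes and fat cells, Adamts17, Tgfb2, Sema3a and Nfatc1. Cluster 9 held 11.7% and 13.3% and was led by Wfdc18, Gpc6 and the keratin Krt6a. The other 121 control and 48 Gli2EKO members were spread over further clusters. The label fits these groups unequally, and members outside cluster 6 are called here by their cluster.

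**Figure D3:**
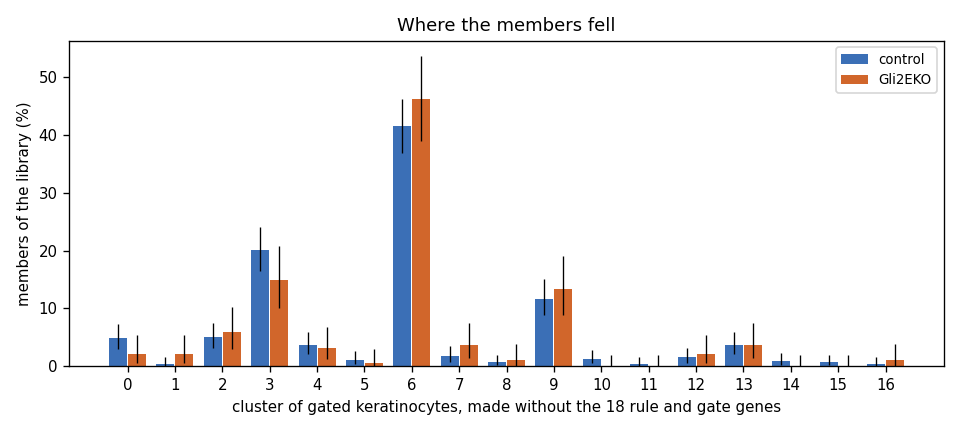
Share of each library's members (vertical axis, percent) in each of 17 clusters of gated keratinocytes built without the rule and gate genes, with exact 95% intervals as bars, control in blue and Gli2EKO in orange. Cluster 6 holds 41.5% and 46.3% of the members, cluster 3 20.1% and 14.9% and cluster 9 11.7% and 13.3%.

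The members of the clusters differed from each other. Sox9 was at 764 CPM in control and 767 CPM in Gli2EKO members of cluster 6, at 389 and 351 CPM in cluster 3, at 638 and 724 CPM in cluster 9, and at 346 and 267 CPM elsewhere. Lhx2 was at 503 and 531 CPM in cluster 6 and at 239 and 269 CPM in cluster 3. Nfatc1 was at 305 and 371 CPM in cluster 6 and 341 and 400 CPM in cluster 3, but at 71.3 and 43.4 CPM in cluster 9. Krt6a, a keratin of the companion layer next to the sheath, was at 1249.7 and 1089.8 CPM in members of cluster 9 and at 36.8 and 10.2 CPM in cluster 6. Krt79, a keratin of the follicle canal and junctional zone, was at 2061 and 1875 CPM in cluster 9 and at 275 and 205 CPM in cluster 6. Krt10 was at 998 and 2517 CPM in members elsewhere and between 68.6 and 122 CPM in the members of clusters 3, 6 and 9. Among the members elsewhere were 17 control and 7 Gli2EKO cells of cluster 13, led by fibroblast genes such as Col1a1 and Col3a1, 3 and 0 cells of cluster 15, led by melanocyte genes such as Dct, and 2 cells of each library in cluster 16, led by immune genes such as Cd74. Sox9, Lhx2 and Nfatc1 were found together in 57.2% of control and 61.4% of Gli2EKO members of cluster 6 after thinning, and in 8.26% and 2.08% of members elsewhere.

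Members in cluster 6 were seldom dividing. With each cell thinned to 5000 UMIs, 16.2% of control (interval 11.03 to 22.5) and 15.7% of Gli2EKO members of cluster 6 (8.61 to 25.3) had at least 3 UMIs of the 25 genes of the G2/M phase. In cluster 3 these shares were 60.7% and 57.7%, and among members elsewhere 57.9% and 64.6%. Cluster 9 was at 24.5% in the control and 4.17% in the Gli2EKO library, with 53 and 24 cells. Over all members the shares were 37.8% and 33.1%, and over other gated keratinocytes 52.5% and 46.7%. Mki67, a marker of cycling cells, was at 65.0 and 43.2 CPM in members of cluster 6 and at 703 and 691 CPM in those of cluster 3. No phase was called from these genes for single cells, and the low share in cluster 6 held in both libraries.

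**Figure D4:**
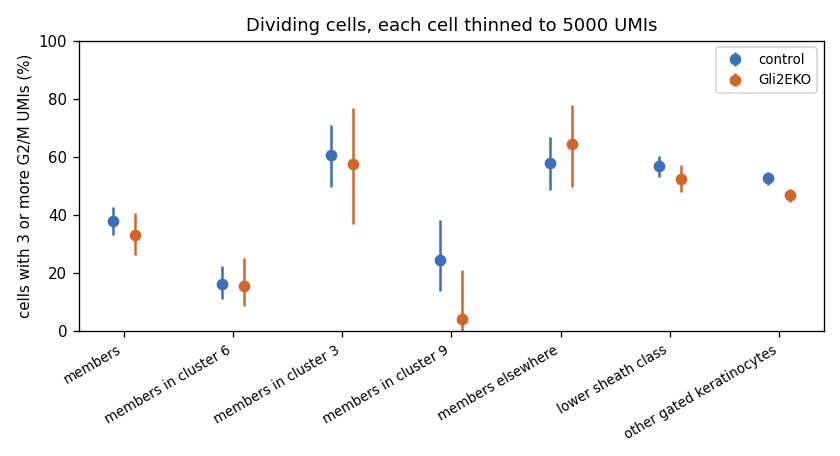
Share of cells with at least 3 UMIs of the G2/M genes (vertical axis, percent) after thinning to 5000 UMIs, for members, members by cluster and the other keratinocyte classes, with exact 95% intervals, control in blue and Gli2EKO in orange. Members of cluster 6 lie at 16.2% and 15.7%, and members of cluster 3 at 60.7% and 57.7%.

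Since cluster 6 was built without the rule genes, its size does not turn on them directly. It held 7.89% of the gated control keratinocytes (6.89 to 8.998) and 5.51% of the gated Gli2EKO keratinocytes (4.57 to 6.57), a ratio of 0.698 (0.551 to 0.881). Of all cells past the limits it held 4.23% and 3.45%, a ratio of 0.815 (0.644 to 1.03), so that with this denominator the difference lay within counting error. Cluster 3 was at 10.6% and 6.65% and cluster 9 at 7.16% and 4.23% of the gated keratinocytes. The lower share of cluster 6 was found with both libraries clustered together. With each library clustered alone, the cluster with most members held 193 of 2597 gated control and 195 of 2105 gated Gli2EKO keratinocytes. The Gli2EKO share was thus not lower in that setting, and members were 92.2% and 52.8% of these cells.

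Within the members, Gli2EKO was compared with control gene by gene. Of 8820 genes with at least 100 UMIs, 179 (2.03%) were at least 1.5-fold higher and 409 (4.64%) at least 1.5-fold lower in the Gli2EKO library, with a median log2 ratio of all genes of -0.04. With 1 library per genotype these are counts of a fold and not of a test. When cells with UMIs of other cell types' markers were left out, 209 of 5068 genes tested (4.12%) were lower, and after thinning 182 of 4510 (4.04%). Genes lower in the Gli2EKO members had a median span of 41.8 kb and those higher 15.9 kb, against 30.6 kb for all genes tested, and among the lower genes described below Nlgn1 spans 906 kb, Tenm3 618 kb and Fst 6.79 kb. The part of gene length in this comparison was not tested. None of the 16 sheath transcription factors passed the fold in either direction, with a median log2 ratio of -0.06. Sox9 had a log2 ratio of -0.02 (-0.12 to 0.08), Nfatc1 of 0.17 (0.01 to 0.32), Lhx2 of -0.17 (-0.30 to -0.04) and Tcf7l1 of 0.02 (-0.15 to 0.18). In the other keratinocytes the ratio was -0.31 for Sox9, -0.78 for Lhx2 and -0.69 for Tcf7l1.

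Some niche and adhesion genes were lower, where 4.64% of all genes were lower and 2.03% higher. Of the 12 stem niche and sheath markers tested, 0 were higher and 3 lower, with a median of -0.19. These were Npnt, at a log2 ratio of -0.86 (-1.02 to -0.71), Fst, which encodes the activin antagonist follistatin, at -0.70 (-0.81 to -0.60), and Tnc, which encodes the matrix protein tenascin C, at -0.72 (-0.90 to -0.55). Other keratinocytes were at -0.17 for Npnt, -0.04 for Fst and -0.15 for Tnc. Of 34 guidance and synaptic adhesion genes outside the rule, 5 were lower and 0 higher, with a median of -0.08 near the -0.04 of all genes, and the lower ones were Tenm3, Sema3a, Nrp2, Ntn4 and Unc5b. Of 20 genes of basement membrane adhesion 1, Frem1, was lower and 0 were higher, with a median of -0.18. Tenm3, a teneurin that bridges cells, was at 102 CPM (94.5 to 111) in control and 53.7 CPM (44.8 to 64.0) in Gli2EKO members. Pdlim3 was at 61.6 and 32.0 CPM.

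Fewer named genes were higher, where 2.03% of all genes were higher and 4.64% lower. Krtap17-1 was at 71.6 CPM (64.9 to 78.7) in control and 177 CPM (160 to 195) in Gli2EKO members, a log2 ratio of 1.31, against -0.28 in the other keratinocytes. Adamts18, an ADAMTS protease, was at 35.6 and 70.8 CPM, a log2 ratio of 0.99. Of 8 Wnt ligands tested, Wnt3, Wnt7b and Wnt16 were higher, at 1.01, 0.76 and 1.25, against 0.37, 1.25 and 0.55 in the other keratinocytes. The median of the Wnt ligands was 0.33 in members and 0.40 in the others. Wnt3 and Wnt16 were read from few cells. Wnt3 had a UMI in 26 control and 20 Gli2EKO members, and Wnt16 in 37 and 25. The keratins Krt1 and Krt10 of the suprabasal epidermis were at log2 ratios of 1.33 and 1.24 in members and 0.95 and 0.86 in the others, and single cells held 34.0% of the control and 33.0% of the Gli2EKO UMIs of Krt10.

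Gli2 itself was at 109 CPM (101 to 118) in control and 134 CPM (120 to 150) in Gli2EKO members. The assay counts the polyA end of the RNA, and which exons are deleted is not given in the sources used here, so that these values do not check the label. Of 12 Hedgehog genes tested, 3 were lower and 0 higher, against 4.64% and 2.03% of all genes, and the median was -0.18. Gli1, a transcriptional target of the pathway, was at 25.7 CPM (21.7 to 30.1) and 13.2 CPM (8.98 to 18.8), and Gli3 at 160 CPM (150 to 171) and 87.9 CPM (76.3 to 101). Ptch1, the receptor and also a target, was at 150 CPM (140 to 160) and 106 CPM (93.0 to 120), below the 1.5-fold line. Hhip, a secreted inhibitor of the ligands, was at 18.7 and 11.1 CPM, but at 9.78 and 11.4 CPM in members of cluster 6. Of the co-receptors, Gas1 was at 290 and 384 CPM and Boc at 111 and 115 CPM, and Smo was at 101 and 89.1 CPM. Ptch1 stood at 176 and 123 CPM in the other keratinocytes, a log2 ratio of -0.51 beside -0.50 in members. The ratio of Ptch1 in members was 0.04 without dividing cells and 0.05 without cells that carry markers of other cell types, and it was -0.06 after thinning, where that of Gli1 was -0.36 and that of Gli3 -0.29.

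The same comparison was made in all cells of cluster 6, which was built without the rule genes. It was picked because it held more members than any other cluster. Members were 188 of its 205 control and 87 of its 116 Gli2EKO cells, so these are largely the same cells. Of 5230 genes tested there, 142 (2.72%) were higher and 233 (4.46%) lower in the Gli2EKO library, with a median log2 ratio of -0.01. Among the members of cluster 6 alone, 163 of 4667 genes (3.49%) were higher and 248 (5.31%) lower, and among those of cluster 3, 136 of 3279 (4.15%) and 256 (7.81%). In all cells of cluster 6, Adamts19 was at 739 and 234 CPM, a log2 ratio of -1.66 (-1.86 to -1.46), Nlgn1 at 330 and 126 CPM, and Nkain2 at 588 and 272 CPM. Npnt was at 719 and 389 CPM (log2 ratio -0.89), Fst at 663 and 302 CPM (-1.13), Pdlim3 at 159 and 74.1 CPM (-1.09) and Tenm3 at 190.3 and 42.8 CPM (-2.14). These genes were lower there too, in largely the same cells of the same 2 libraries, so this is no independent support. Of the 7 stem-side genes, 4 were past the fold in all cells of the cluster, namely Adamts19, Nlgn1, Nkain2 and Cacna1e. All 4 were lower, and 0 were higher. Of 25 guidance and synaptic adhesion genes tested in the cluster 5 were lower, namely Tenm3, Sema3c, Plxna2, Epha4 and Efnb2, and 0 were higher. Sema3a, Nrp2, Ntn4 and Unc5b, lower in members, were short of the fold or under 100 UMIs there. Of 12 stem niche and sheath markers tested there, 2, Npnt and Fst, were lower and 0 higher. Tnc, lower in members, was not among the lower ones.

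The transcription factors again lay close together in this cluster. Sox9 was at 748 and 799.9 CPM, Lhx2 at 492 and 494 CPM, and Krt15 at 2895 and 2994 CPM. Tbx1, a T-box factor of bulge stem cells, was the 1 of 16 transcription factors past the fold, at 321 CPM in control and 527 CPM in Gli2EKO cells of cluster 6, a log2 ratio of 0.72 (0.55 to 0.88). In all members its ratio was 0.55, and in other keratinocytes -0.68. Krtap17-1 was at 167 and 303 CPM and Wnt5a at 40.5 and 77.0 CPM. Of 5 Wnt ligands tested in the cluster 1, Wnt5a, was higher and 0 were lower. Wnt3, Wnt7b and Wnt16, higher in members, were short of the fold or under 100 UMIs there. Of 7 Hedgehog genes tested in the cluster 0 passed the fold, with Ptch1 at 137 and 124 CPM, Gli1 at 26.3 and 23.8 CPM and Gli3 at 202 and 146 CPM. The difference of Ptch1 there was -0.14 (-0.45 to 0.17) on the log2 scale. Among the members of cluster 6 alone, 1 of 6 Hedgehog genes tested, Gli3, was lower and 0 higher, where 5.31% of all genes were lower. In all cells of cluster 6, 8 of 18 genes of the dissociation stress response were lower in the Gli2EKO library and 0 higher. Of all genes tested there, 4.46% were lower and 2.72% higher. The lower stress genes included Atf3 at 261 and 50.4 CPM and Egr1 at 548 and 294 CPM. Their part in the differences within cluster 6 was not tested.

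**Figure D5:**
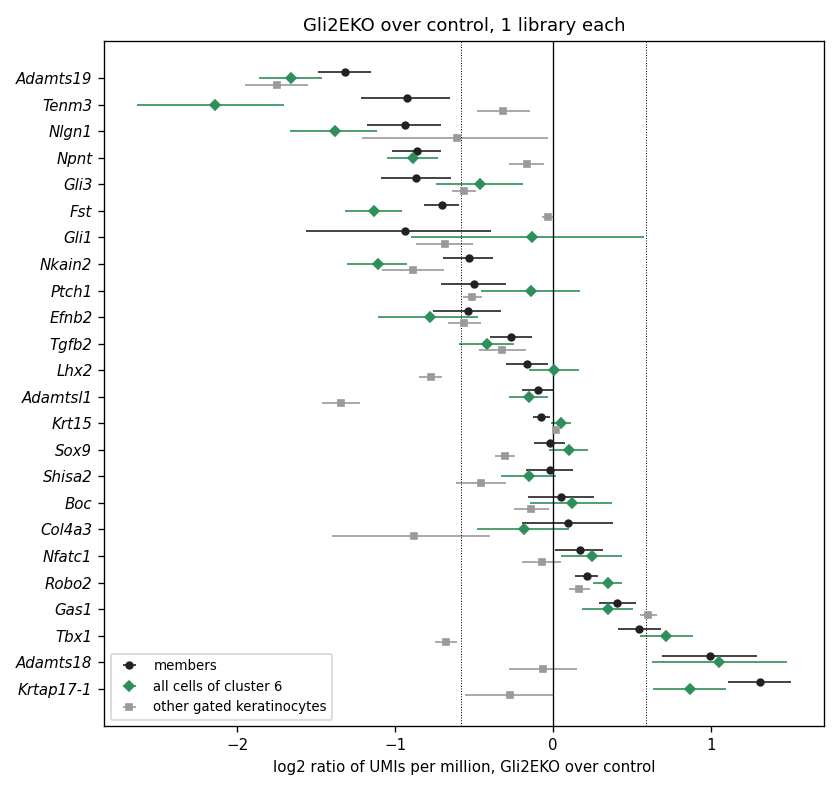
Log2 ratio of the level in Gli2EKO over control (horizontal axis) for 24 genes in members (black circles), all cells of cluster 6 (green diamonds) and other gated keratinocytes (grey squares), with exact 95% intervals from counting error and dotted lines at 1.5-fold. Adamts19, Tenm3, Nlgn1, Npnt and Fst lie left of the line in members and in cluster 6, Sox9, Lhx2 and Krt15 lie near 0 in both, and Krtap17-1 and Adamts18 lie to the right.

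Detection per cell was compared for genes outside the rule. After thinning, Npnt was found in 73.4% of control (66.2 to 79.8) and 67.5% of Gli2EKO members of cluster 6 (56.3 to 77.4), with overlapping intervals. Without thinning the shares were 83.0% and 81.6%. Npnt was found in 4.76% and 6.15% of the immune and endothelial cells. Sox9 was found in 97.1% and 96.4% of members of cluster 6.

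Markers of other cell types were low but present among the members. The summed level of the 8 fibroblast markers was 399.8 CPM in control and 535 CPM in Gli2EKO members, that of the 8 immune markers 25.7 and 174 CPM, and that of the 8 melanocyte markers 171 and 45.6 CPM. In the immune and endothelial cells the immune markers summed to 10590 and 10749 CPM. The 8 endothelial markers summed to 13.0 and 12.8 CPM in members, with 3 of them at 0 in each library. Sebocyte markers summed to 522 and 210.3 CPM, and 6 of 8 were lower in the Gli2EKO members, where 4.64% of all genes were. Cluster 14, led by sebocyte genes, held 4 control and 0 Gli2EKO members, and the control cell with most UMIs of each of these 6 genes was in it, with 47.8% of the control UMIs of Scd1. The part of these cells in the sebocyte counts was not tested. The top 8% of doublet scores included 38 of the control members (8.39%) and 25 of the Gli2EKO members (13.3%), and they were kept because the rule does not remove them.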

How the data were processed

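Epidermis of mouse back skin was profiled by droplet single-cell RNA sequencing, with 1 library per genotype. The authors deposited counts, as whole UMIs per gene and cell, made with Cell Ranger 9.0.1 on GRCm39 with a GENCODE annotation, per the labels and methods, and not normalized. Cell Ranger counts intronic reads by default, so that long genes can gain counts from unspliced RNA. Total counts were 71021773 in the control and 48866478 in the Gli2EKO library, over 56694 genes.

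Counts were summed over the cells of a class and scaled to 1000000. Genes with at least 100 UMIs were compared, 0.5 UMIs were added before a log2 ratio, and 1.5-fold was the threshold. Intervals (95%) were exact Poisson for levels, Clopper-Pearson for shares and conditional binomial for ratios, and they cover counting error only. There was no test, since the 2 libraries hold no replicates. For clustering (scanpy 1.11.5, the Leiden method of igraph, Python 3.11.15), 2000 variable genes without the 18 rule and gate genes were used. Settings were 20 principal components, 15 neighbours and a resolution of 0.5, without integration. The study removed doublets with scDblFinder, whereas here none were removed, and leaving out the 8% of cells with the highest Scrublet scores was an alternative. Shares of cells were compared after thinning to 5000 UMIs, which left out 142 control and 103 Gli2EKO other keratinocytes. The code was checked on simulated data.

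Genes were named when they were in the rule, in the marker and pathway lists, among the 15 leading genes of the members, or among the 10 highest and 10 lowest ratios between libraries. Col4a4, Malat1 and the leading genes of clusters outside those lists (Aldh3a1, Wfdc18, Gpc6, Col3a1) were named after their values were seen. The members and lists were chosen with earlier results of these data known. Gene coordinates were read from a GENCODE release newer than the files', on GRCm39 as well, and all 448 identifiers sought were in it. Promoters came from RefSeq on GRCm38.p6.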

Additional observations from a re-analysis of the deposited data

Results flagged for a closer look

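For 6 named genes, the Gli2EKO library was past 1.5-fold in one direction in the members and past it in the other direction in the other gated keratinocytes. With 1 library per genotype, the difference between these pairs of ratios was not tested. Cst6, a cystatin of the upper follicle, had a log2 ratio of -2.13 in members and 0.88 in the others, and Klk6, a kallikrein protease, -3.27 and 0.80. Klk6 was found in 14 control members, and 62.5% of its 304 control UMIs came from 1 cell. Fbn1, which encodes the microfibril protein fibrillin, had ratios of 1.34 and -0.77, and its ratio in members was 0.54 without the cell of most UMIs in each library. The inner root sheath keratins Krt25 and Krt28 had ratios of 0.90 and 0.63 in members and -0.91 and -1.26 in the others. Without those cells the ratios in members were 0.32 and 0.10. Krt35, a hair shaft keratin, had ratios of 1.74 and -1.91, and 1 Gli2EKO member held 92.7% of its UMIs.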

How the results depend on the processing

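The ratio of the shares of members, 0.512, was 0.621 with at least 2 of 7 genes, 0.398 with a keratin gate of 50 and 0.698 over all cells of cluster 6. The 179 genes higher in Gli2EKO members became 727 with a minimum of 20 UMIs, 4492 with no minimum and 54 at a fold of 2, and the 409 lower genes 1160, 3785 and 107. The lower genes were 182 after thinning, 231 without dividing cells, 209 without cells carrying other markers, 248 in members of cluster 6 and 233 in all its cells, with fewer genes tested in each. Genes higher in members than in the others numbered 1118, and 2009, 9677 and 477 under the same minimums and fold, 1962 for members of cluster 6 and 1994 for all its cells. Those lower numbered 748, and 379 with at least 2 of 7 genes, 1126, 1163 and 377 under the minimums and fold, 1455 for clusters 6, 3 and 9 together, 1906 for members of cluster 6 and 1934 for all its cells. The leading cluster held 26.7% and 22.3% of the control and Gli2EKO members at a resolution of 1.0, and 54.8% of the Gli2EKO members when each library was clustered alone. Of 689 ratios of 46 named genes under 15 alternatives, 14 reversed, 220 moved beyond their counting interval and 455 did not, and of 574 ratios of members over others 243 left a range at least as wide as the difference between the 2 libraries and 331 did not. Hhip became 0.24 in clusters 6, 3 and 9, 0.26 in members of cluster 6 and 0.21 in all its cells, Inhba 1.56, 1.14 and 0.85 there and 0.27 without high doublet scores, and Scd1 0.25 and 0.14 in members and all cells of cluster 6. Cd74 became -0.57 at the keratin gate of 50, -0.10 at a mitochondrial limit of 5%, -0.57 without dividing cells, -0.27 without cells carrying other markers and -0.52 in all cells of cluster 6. The cause of these shifts was not tested. Choices about clusters 3, 6 and 9 and about single cells were made after seeing the data. No paired analysis was possible because there was 1 library per genotype. Differences between mice and between libraries cannot be told apart from the genotype, and genes under 100 UMIs were too shallow to compare.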

Other observations

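The genes with the highest ratios between the libraries in members came mostly from single cells. Mylpf, a myosin light chain of skeletal muscle, had a log2 ratio of 6.78, but 1 Gli2EKO member held 98.95% of its UMIs, and without the cell of most UMIs in each library the ratio was 0.32. Cd74, an immune gene, had a ratio of 4.76 with 59.1% of its Gli2EKO UMIs in 1 member.

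Among the lowest ratios, Nrcam, a neuronal adhesion protein, was at -2.94 in members and -1.38 in the other keratinocytes, and Kcnb2, a potassium channel, at -2.62 and -1.73. Both rested on few Gli2EKO members, with 7 UMIs of Nrcam in 4 cells and 8 UMIs of Kcnb2 in 2 cells. Gm47283, on chromosome Y, was at -2.87 in members, -2.75 in the other keratinocytes and -2.77 in the lower sheath class. It was thus lower across the Gli2EKO keratinocytes. The methods state no preference for sex in the choice of control littermates, and the part of sex in this difference was not tested. Dct, a melanocyte enzyme, was at -3.59, with 30.6% of its control UMIs in 1 member of the melanocyte gene cluster 15. Of 22 genes of the S phase, 3 (Mcm4, Mcm6 and Cdc6) were lower in Gli2EKO members and 0 higher, against 4.64% and 2.03% of all genes. In cluster 6, 0 of 14 S phase genes tested over all its cells and 0 of 11 over its members were lower, and in all members, of 25 genes of the G2/M phase 0 passed the fold in either direction.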
